A study of Drosophila melanogaster with 6 samples.

Results

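The Hippo pathway is a kinase cascade that restrains the transcriptional co-activator Yorkie, and 10 of its genes were followed in adult Drosophila melanogaster midguts by RNA sequencing. They were chosen by name, as yki, sd, hpo, sav, wts, mats, ex, Mer, kibra and fj. Each of the 10 names has a row of its own among the 15391 rows of the count table. Of the 10, 9 had enough reads to be tested, and fj did not. The knockdown flies carried Rab11 RNA interference under Myo1A-Gal4, which is expressed in absorptive cells of the gut epithelium, the enterocytes, and the controls were described as wild type. Each group had 3 libraries. The labels do not say whether the control flies carried the driver, which RNA interference line was used, or how many guts went into a library. All flies were moved to 29 °C at 5 days after they eclosed and stayed there for 5 days. The Rab11 protein is a small GTPase that directs traffic through recycling endosomes.

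In this cascade the kinase Hippo, held by the scaffold Salvador, activates the kinase Warts, which works with its co-activator Mats. Active Warts phosphorylates Yorkie, which is then kept in the cytoplasm. When Warts is less active, Yorkie enters the nucleus, binds DNA through the TEAD factor Scalloped, and drives growth and survival genes. Expanded, Merlin and Kibra act upstream at the apical membrane to turn the cascade on, and several of the upstream genes are also transcribed under Yorkie, as negative feedback. In the fly gut the pathway is best known for limiting the division of intestinal stem cells, both inside those cells and through signals that damaged enterocytes send to them. Much of its regulation is by phosphorylation and localization of the proteins, which RNA levels do not measure.

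Depth was 9818914 to 33082790 counted reads per library, deepest in the library numbered 3 of each group. Rab11 had 64.4, 78.2 and 78.7 CPM (counts relative to TMM-scaled library sizes) in the knockdown libraries, against 319, 270 and 219 CPM in the wild type, so that the targeted gene was lower in all 3 knockdown libraries (log2 fold change -1.87, edgeR quasi-likelihood test, adjusted p = 0.00342). The labels call the cell type enterocyte, but the RNA came from whole dissected midguts. Markers of enteroendocrine cells, stem cells and muscle were present in both groups. In such bulk samples, a change in the number of cells of a type and a change of RNA per cell cannot be told apart.

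Reads of all 10 genes were counted in each group, though those of fj were very few in both. Levels of different genes were compared as RPKM, which divides CPM by exonic length in kilobases. By this measure yki was the highest of the 10 in each of the 6 libraries and mats was the second. Transcripts of yki averaged 37.9 ± 8.61 RPKM in the knockdown and 42.6 ± 12.6 RPKM in the wild type (SD, n = 3 each). Those of mats averaged 20.9 ± 4.96 RPKM in the knockdown and 22.4 ± 9.23 RPKM in the wild type. The ranges of yki and mats did not overlap in the knockdown, and they did in the wild type.

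Below them stood sav at 15.1 ± 3.24 RPKM in the knockdown and 8.44 ± 1.81 RPKM in the wild type, and Mer at 12.9 ± 3.41 RPKM in the knockdown and 10.2 ± 3.14 RPKM in the wild type. The ranges of sav and Mer overlapped in each group. The other 5 well-detected genes, sd, hpo, kibra, wts and ex, had group means between 5.22 and 7.10 RPKM in the knockdown and between 4.03 and 6.80 RPKM in the wild type. Each neighbouring pair among these 5, in the order of its group's means, overlapped in its range. In the wild type wts, at 6.30 to 7.06 RPKM, lay above hpo, at 3.13 to 4.53 RPKM, and above kibra, at 4.09 to 4.35 RPKM, in every library. In the knockdown the ranges of wts overlapped those of both. The Hippo kinase was sixth of the 10 in the knockdown and ninth in the wild type.

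**Figure D1:**
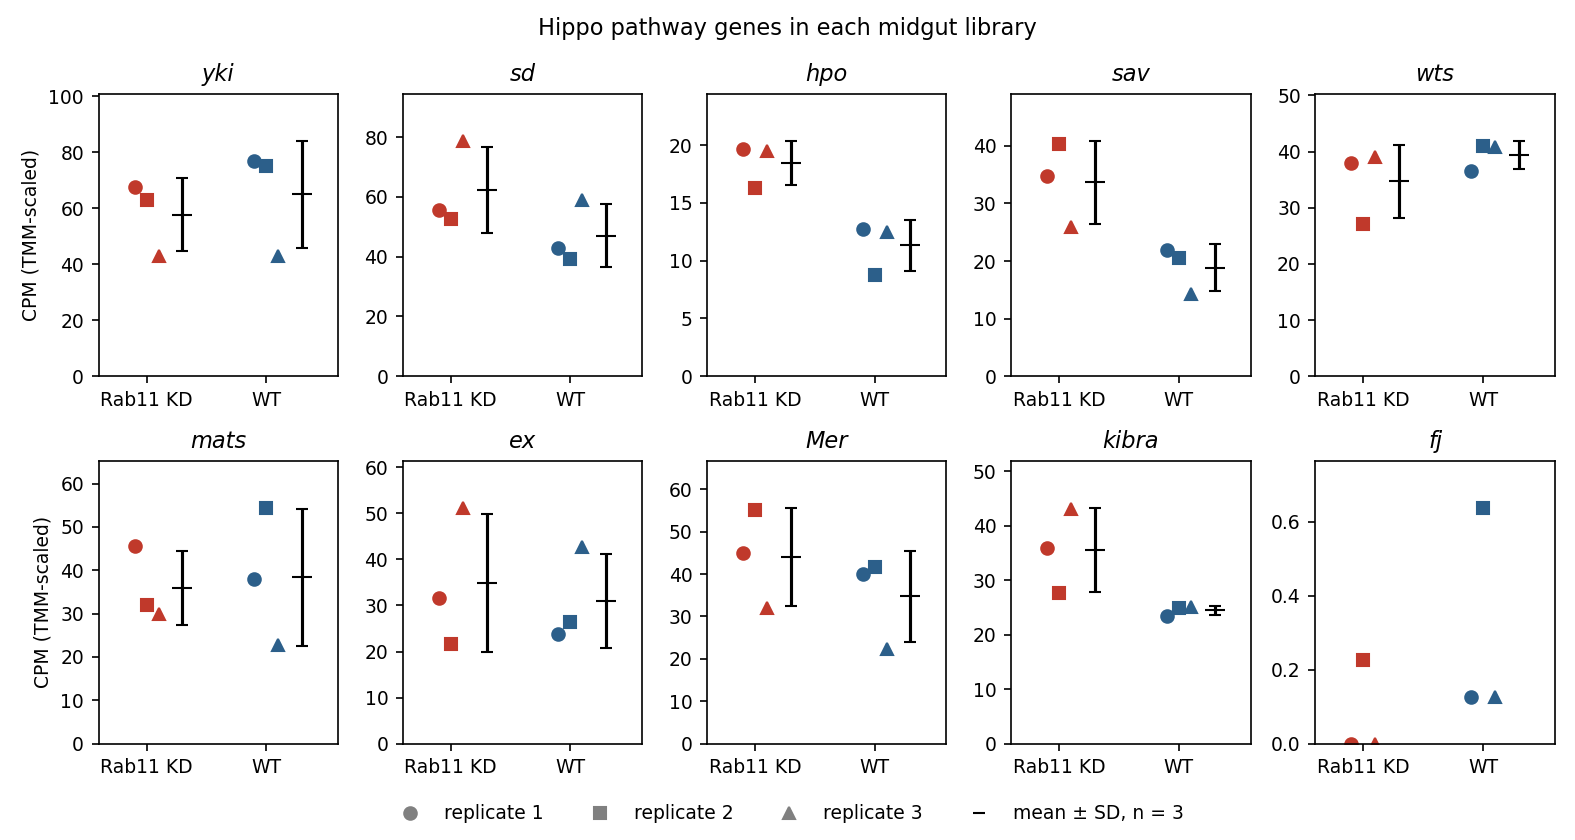
Levels of the 10 genes in CPM on TMM-scaled library sizes, with Rab11 knockdown libraries in red and wild-type libraries in blue; each axis starts at 0, symbols mark replicate numbers, and the black bars are mean ± SD (n = 3), left out for fj, which had few reads. The 3 knockdown libraries lie above the 3 wild-type libraries for hpo, sav and kibra, and the replicate 3 libraries of both groups lie low for yki, sav, mats and Mer and high for sd and ex.

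The knockdown was compared with the wild type to ask whether transcripts of the pathway change when Rab11 is depleted in enterocytes. None of the 9 tested genes passed an adjusted p of 0.05 in edgeR's quasi-likelihood test, where 16.7% of all 8377 genes tested did. At an unadjusted p under 0.05 there were 3, hpo, sav and kibra, beside 32.3% of all genes. For the same 3 genes the knockdown libraries all lay above the wild-type libraries, which was so for 20.2% of all genes. With the replicate number as a block, hpo and sav passed as higher in the knockdown, a direction in which that fit called 15.2% of all genes. The authors' deposited table, which lists genes with an adjusted p under 0.1, holds 2 of the 10 genes, again hpo and sav, and 29.0% of the genes it was adjusted over. DESeq2 with the same design as the main test passed sav alone, where it passed 21.2% of all genes it adjusted. The counts without overlap and under the block lie above the share of all genes by less than 2 genes, and those of the main test, of DESeq2 and of the authors' deposited table lie below it. The median log2 fold change of the 9 was 0.34, and that of all genes tested was 0.04.

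The scaffold gene sav and the kinase gene hpo, the upper step of the cascade, had the largest differences. Salvador brings Hippo and Warts together. Reads of sav came to 34.9, 40.3 and 25.9 CPM in knockdown libraries 1, 2 and 3, against 21.8, 20.5 and 14.3 CPM in wild-type libraries 1, 2 and 3. Every knockdown library lay above every wild-type library, and the library numbered 3 was the lowest of its group in both. This is a fitted fold of 1.79, with a 95% interval of 1.18 to 2.70 (log2 fold change 0.84, SE 0.25, edgeR, adjusted p = 0.0631). With the replicate block the estimate was also 0.84 on the log2 scale, with a smaller SE of 0.15 (edgeR, adjusted p = 0.00984). The authors' deposited table gives sav a log2 fold change of 0.79 with an adjusted p of 0.0418.

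Reads of hpo came to 19.7, 16.3 and 19.5 CPM in knockdown libraries 1, 2 and 3, against 12.7, 8.78 and 12.5 CPM in the wild type. The groups did not overlap, and replicate 2 was the lowest in both. In the fit the knockdown was at 1.63 times the wild type, with a 95% interval of 1.13 to 2.36 (log2 fold change 0.71, SE 0.23, edgeR, adjusted p = 0.0758). Under the block the adjusted p was 0.0264 at a log2 fold change of 0.72 (edgeR). The authors' deposited table gives hpo 0.67 on the log2 scale and an adjusted p of 0.0449. An exact two-sided permutation test over the libraries gave p = 0.1 for hpo, for sav and for kibra, the smallest p that 3 libraries against 3 allow.

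Part of each of these genes is shared with a neighbour in the BDGP6 annotation, and the strand setting of the counting is not given in the sources. On the opposite strand of hpo lies Rep, the Rab escort protein gene, which overlaps 4.64% of the exonic bases of hpo. Reads of Rep rose to 50.5 ± 2.93 CPM in the knockdown, against 16.8 ± 0.943 CPM in the wild type (SD, n = 3 each; log2 fold change 1.58, edgeR, adjusted p = 0.00264). How far reads of Rep entered the count of hpo was not tested. For sav the shared part with Ctns, on the same strand, was 3.27%, and Ctns stood lower in the knockdown, at 67.8 ± 19.7 CPM, against 118 ± 79.0 CPM in the wild type, without passing the test.

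Like sav and hpo, the genes of the lower step, the kinase gene wts and its co-activator gene mats, did not pass the main test. Warts is the kinase that phosphorylates Yorkie. It had 38.0, 27.1 and 38.9 CPM in knockdown libraries 1, 2 and 3, against 36.6, 41.0 and 40.8 CPM in the wild type. The groups overlapped, with knockdown replicate 2 alone below the others. The fit gave a fold of 0.880, with a 95% interval of 0.636 to 1.22 (log2 fold change -0.18, SE 0.20, edgeR, adjusted p = 0.586).

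Mats binds and activates Warts. Its gene had 45.6, 32.0 and 29.9 CPM in the knockdown, against 38.1, 54.4 and 22.7 CPM in the wild type. The 6 values were interleaved, and wild-type replicates 2 and 3 were the highest and the lowest of all. For mats the fold was 0.937, with a wide 95% interval of 0.542 to 1.62 (log2 fold change -0.09, SE 0.34, edgeR, adjusted p = 0.877). Its sign was not fixed, at 0.25 without wild-type replicate 2 and -0.41 without wild-type replicate 3.

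Ratios of 2 genes within a library do not depend on how the libraries are scaled, and 3 pairs were formed by role after the values had been seen. The RPKM of hpo over that of wts was 1.07, 1.24 and 1.04 in the knockdown, against 0.719, 0.443 and 0.632 in the wild type. The RPKM of sav over that of mats was 0.587, 0.966 and 0.665 in the knockdown, against 0.440, 0.289 and 0.483 in the wild type. For both pairs the 3 knockdown libraries lay above the 3 wild-type libraries, whatever the scaling. The numerators hpo and sav lay higher without overlap by themselves, as 20.2% of all genes did, so these ratios are not separate evidence. How often other gene pairs part in this way was not tested. The RPKM of yki over that of sd was 6.99, 6.89 and 3.12 in the knockdown, against 10.3, 11.1 and 4.18 in the wild type, where the groups overlapped through the replicate 3 libraries, and each knockdown library lay below the wild-type library of the same number.

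Yorkie itself, the co-activator at the end of the cascade, did not pass either. It had 67.5, 62.9 and 42.8 CPM in knockdown libraries 1, 2 and 3, against 76.8, 75.2 and 42.9 CPM in the wild type. The libraries numbered 3 were the lowest of each group and nearly equal to each other. Its fold was 0.889, with a 95% interval of 0.555 to 1.42 (log2 fold change -0.17, SE 0.29, edgeR, adjusted p = 0.742), and the adjusted p was 0.500 with the replicate block. With library sizes alone the log2 fold change had the other sign, at 0.28.

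Scalloped, the TEAD factor through which Yorkie binds DNA, had 55.5, 52.5 and 78.9 CPM in the knockdown, against 42.9, 39.1 and 58.9 CPM in the wild type. The groups overlapped because the replicate 3 library was the highest of each. Within each replicate number the knockdown was higher, by 0.37, 0.42 and 0.42 on the log2 scale. For sd the fold was 1.32, with a 95% interval of 0.888 to 1.98 (log2 fold change 0.41, SE 0.25, edgeR, adjusted p = 0.307), or 0.0756 under the replicate block.

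**Figure D2:**
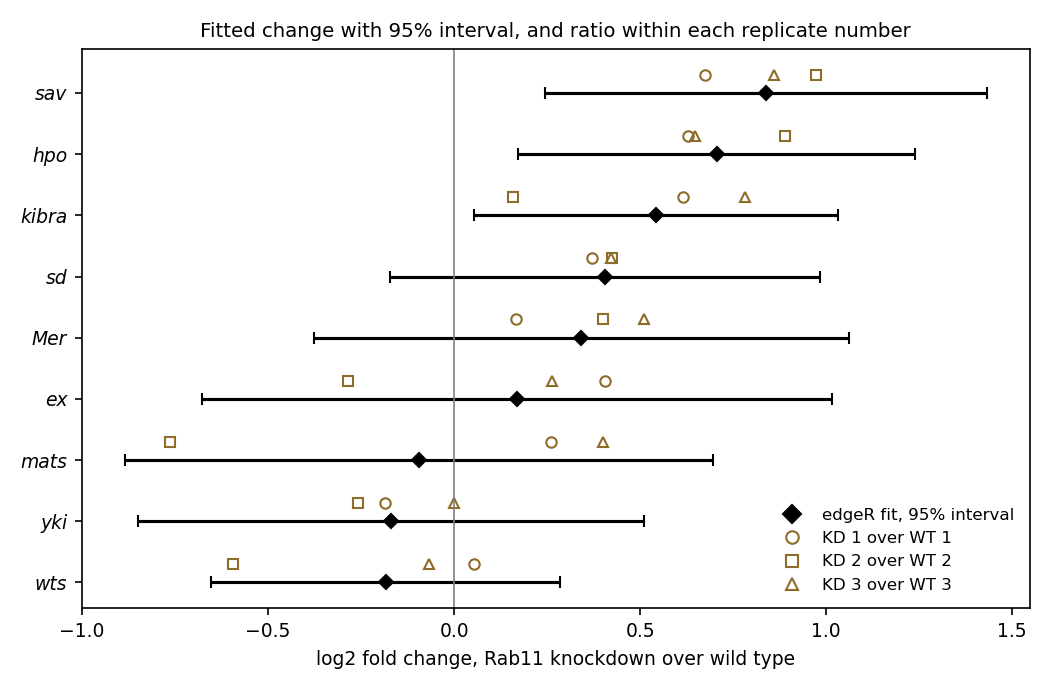
Change of the 9 tested genes on the log2 scale, knockdown over wild type: black diamonds with bars are the edgeR estimate and its 95% interval, and open symbols are the ratio of CPM within each replicate number. The intervals of sav, hpo and kibra lie above 0 before adjustment over all genes, and the within-number ratios of sd lie between 0.37 and 0.42, closer together than its interval.

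The upstream regulators Expanded, Merlin and Kibra activate the cascade at the apical membrane. Kibra, a WW-domain scaffold, was the one of the 3 with groups that did not overlap. It had 36.0, 27.7 and 43.0 CPM in the knockdown, against 23.5, 24.8 and 25.0 CPM in the wild type. The wild-type libraries were close to each other and the knockdown libraries were spread out, with the nearest values at 27.7 and 25.0 CPM. The fitted fold was 1.46, with a 95% interval of 1.04 to 2.05 (log2 fold change 0.54, SE 0.21, edgeR, adjusted p = 0.121), and the adjusted p was 0.0643 with the replicate block.

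Merlin, the fly counterpart of the human tumour suppressor NF2, had 44.9, 55.1 and 31.9 CPM in the knockdown, against 40.0, 41.8 and 22.4 CPM in the wild type. The groups overlapped, and the replicate 3 library was the lowest in both. Its fitted fold was 1.27, with a 95% interval of 0.770 to 2.09 (log2 fold change 0.34, SE 0.31, edgeR, adjusted p = 0.499).

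The FERM-domain protein Expanded is encoded by ex, whose transcription is a widely used readout of Yorkie activity in fly epithelia. It had 31.6, 21.7 and 51.1 CPM in the knockdown, against 23.9, 26.5 and 42.6 CPM in the wild type. The ranges overlapped almost wholly, and both replicate 3 libraries were the highest of their group. The fitted fold was 1.12, with a 95% interval of 0.625 to 2.02 (log2 fold change 0.17, SE 0.36, edgeR, adjusted p = 0.795), and its sign turned to -0.23 without knockdown replicate 3. In the annotation 6.71% of its exonic bases are shared with crq on the opposite strand, which had 115 ± 31.7 CPM in the knockdown and 77.5 ± 13.4 CPM in the wild type (SD, n = 3 each; edgeR, adjusted p = 0.172).

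The Golgi kinase gene fj, four-jointed, modifies the cadherins Fat and Dachsous and is, like ex, a known Yorkie target in discs. It had very few reads in these midguts. There were 0, 2 and 0 reads in knockdown libraries 1, 2 and 3, against 1, 5 and 4 reads in the wild type. A count of 0 allows up to 0.212 CPM in knockdown library 1 and 0.0628 CPM in knockdown library 3, at a floor of 3 counts. The ratio of the summed reads, 2 in the knockdown against 10 in the wild type, was 0.134 after scaling, and counting error alone puts it between 0.0143 and 0.630 (95% exact binomial interval). With this few reads fj did not pass the filter of the main test, and DESeq2 gave it no adjusted p. The edgeR fit with no filter kept it, and there 0 of the 10 genes passed.

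The libraries numbered 3 stood apart for most of these genes, and in the same way in both groups. Relative to the mean of replicates 1 and 2, on the log2(CPM + 1) scale, the library numbered 3 was higher for ex by 0.94 in the knockdown, against 0.74 in the wild type. For sd the difference was 0.54 in the knockdown, against 0.51 in the wild type. In contrast yki stood at -0.59 in the knockdown, against -0.81 in the wild type, and Mer at -0.62 in the knockdown, against -0.84 in the wild type. For mats it was -0.34 in the knockdown, against -0.97 in the wild type. Of the 10 shifts given, those of ex in the knockdown and of mats in the wild type were larger than 0.84, the largest fitted difference between knockdown and wild type, that of sav.

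Exonic length moved with them. The genes lower in the replicate 3 libraries, yki, mats, sav and Mer, have 1525, 1716, 2235 and 3400 exonic bases in the BDGP6 annotation. Those above the mean of replicates 1 and 2 in both groups, hpo, kibra, wts, ex and sd, have 2804, 5750, 5803, 6672 and 8766, so that hpo stands out of the order of length. Across 8256 tested genes with a known length, the same difference had a Spearman correlation with length of 0.41 in the knockdown, against 0.18 in the wild type, where genes share their library and are not independent replicates. For 3850 genes under 2000 bases the median was -0.20 in the knockdown, against -0.10 in the wild type. For 1202 genes of 5000 bases or more it was 0.38 in the knockdown, against 0.17 in the wild type. The labels name both Ion Torrent and Illumina protocols without saying which library had which, and the part of the platform was not tested.

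**Figure D3:**
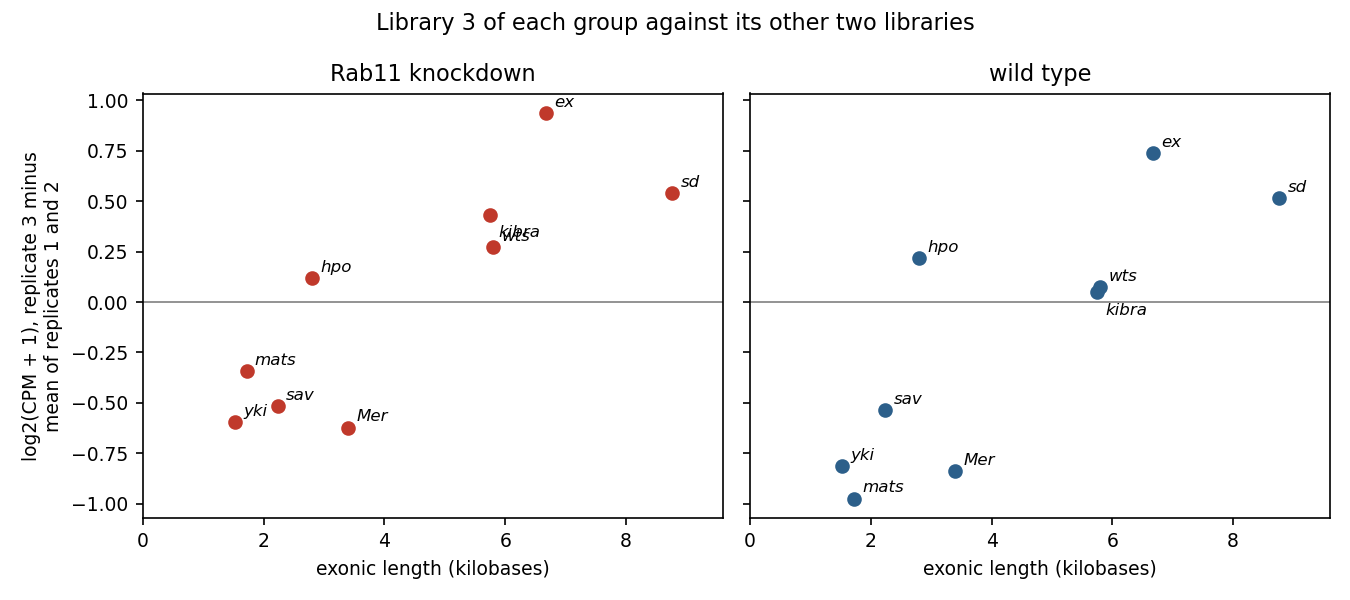
Difference of the replicate 3 library from the mean of replicates 1 and 2 of its group, in log2(CPM + 1), against exonic length in kilobases, with the knockdown in the left panel and the wild type in the right one; each point is 1 of the 9 tested genes. Points for yki, mats, sav and Mer lie below 0 in both panels and the other 5 above 0.

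Without both replicate 3 libraries, sav passed with a log2 fold change of 0.80 (edgeR, adjusted p = 0.0248) and was the 1 of the 9 genes that did. That fit called 1739 of the 8250 genes it tested.

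Beyond the 10 genes, 52 other regulators of the pathway were listed in 4 groups by role, and 48 of them had enough reads to be tested. In edgeR 2 rose and 3 fell, where 16.7% of all 8377 genes tested passed in either direction. Their median log2 fold change was 0.04, the same to 2 decimals as that of all genes tested. Under the block 4 passed as higher and 7 as lower, beside 1276 and 1175 of all 8377 genes. The main test's count of 5 regulators became 0 without knockdown replicate 1, without knockdown replicate 2 and without wild-type replicate 2. It was 1 without wild-type replicate 1, 3 without wild-type replicate 3 and 5 without knockdown replicate 3. Calls over all genes, 1397 in the main test, were 460 and 643 without knockdown replicates 1 and 2. They were 570, 759 and 1092 without wild-type replicates 1, 2 and 3, and 1138 without knockdown replicate 3.

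In the branch of the cadherins Fat and Dachsous, which acts on Warts through the unconventional myosin Dachs, 0 of 6 tested genes passed in edgeR, in edgeR's fit with the block or in DESeq2, and the median log2 fold change was -0.33. In the same order these fits passed 16.7% of all genes, 2451 of 8377 and 21.2%, so that few calls could come from 6 genes. At an unadjusted p under 0.05 there was 1 of the 6, beside 32.3% of all genes. The gene with the most reads over the 6 libraries, though not in the wild type, where app had more, was dco, a casein kinase that phosphorylates Fat, at 78.6 ± 8.66 CPM in the knockdown and 55.8 ± 7.36 CPM in the wild type (SD, n = 3 each; log2 fold change 0.49, edgeR, adjusted p = 0.12).

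In the branch of apical polarity and junction proteins, 0 of 16 passed in edgeR or DESeq2, beside 16.7% and 21.2% of all genes. Of the 16, 2 had an unadjusted p under 0.05 (32.3% of all genes did), and the median log2 fold change was 0.20. The apical spectrin gene kst, with the most reads, had 1201 ± 238 CPM in the knockdown and 1128 ± 119 CPM in the wild type (SD, n = 3 each; log2 fold change 0.09, edgeR, adjusted p = 0.866). Ajuba, encoded by jub, binds and inhibits Warts at junctions, and is named here after its values were seen. It had 31.5, 35.2 and 32.1 CPM in the knockdown, against 21.8, 24.4 and 16.3 CPM in the wild type, in groups that did not overlap. Its log2 fold change was 0.66 (SE 0.21, edgeR, adjusted p = 0.0698), and with the replicate block it was the 1 gene of this branch that passed (edgeR, adjusted p = 0.0247). The fit with the block called 2451 of all 8377 genes.

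The next list held 15 kinases and parts of STRIPAK, a phosphatase complex that removes the activating phosphate from Hippo. Among them 2 rose and 1 fell, with a median of 0.20, where 16.7% of all genes tested passed in either direction. The 2 that rose are parts of STRIPAK. Mob4 had 61.1, 65.7 and 48.8 CPM in the knockdown, against 39.0, 32.8 and 29.4 CPM in the wild type (log2 fold change 0.80, SE 0.20, edgeR, adjusted p = 0.0375). Fgop2 had 18.0, 22.0 and 19.3 CPM in the knockdown, against 13.0, 10.6 and 11.9 CPM in the wild type (log2 fold change 0.74, SE 0.20, edgeR, adjusted p = 0.0438). In neither gene did the groups overlap.

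The other members of the complex in the list did not pass. The phosphatase subunit mts stood at a log2 fold change of 0.38, the scaffold Cka at -0.18, Strip at -0.02 and Slmap at -0.11. Sik3, a salt-inducible kinase that phosphorylates Salvador, fell to 19.3, 12.6 and 19.9 CPM in the knockdown, against 32.1, 37.0 and 35.2 CPM in the wild type (log2 fold change -1.01, SE 0.23, edgeR, adjusted p = 0.0261). The kinase with the most reads, par-1, had 340 ± 64.8 CPM in the knockdown and 386 ± 26.4 CPM in the wild type (SD, n = 3 each; edgeR, adjusted p = 0.657). With the replicate block 2 further kinases passed and are named after the fact, msn as higher at a log2 fold change of 0.83 (edgeR, adjusted p = 0.0313) and hppy as lower at -0.80 (edgeR, adjusted p = 0.0195).

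With each library left out in turn, Sik3 kept its call in 2 of 6 fits, Mob4 in 1 and Fgop2 in 0. With library sizes alone Sik3 stood at -0.52 and did not pass (edgeR, adjusted p = 0.374), whereas Mob4 and Fgop2 still passed.

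Of 11 tested nuclear partners of Yorkie and Scalloped, 2 fell and none rose, with a median of -0.31. Of all 8377 genes tested, 639 fell and 758 rose. The homeodomain factor hth, which binds Yorkie in the eye disc, fell to 14.2, 12.6 and 14.0 CPM in the knockdown, against 22.2, 26.9 and 50.2 CPM in the wild type (log2 fold change -1.29, SE 0.32, edgeR, adjusted p = 0.0351). The knockdown libraries were close together, and wild-type replicate 3 was far above the other libraries. Ncoa6, a co-activator recruited by Yorkie as part of a histone methyltransferase complex, fell to 34.9, 24.9 and 37.9 CPM in the knockdown, against 60.2, 55.0 and 52.4 CPM in the wild type (log2 fold change -0.78, SE 0.21, edgeR, adjusted p = 0.0455).

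With the replicate block 5 of the 11 passed, all lower in the knockdown, as were 1175 of all 8377 genes tested. The 3 added, named after their values were seen, were tsh at -1.36, osa at -0.67 and mask at -0.66 on the log2 scale. Both calls of the main test were lost with library sizes alone, at -0.91 for hth (edgeR, adjusted p = 0.222) and -0.28 for Ncoa6 (edgeR, adjusted p = 0.607). With single libraries left out hth kept its call in 2 of 6 fits and Ncoa6 in 1. Those of hth were without wild-type replicate 1 and without wild-type replicate 3. In the latter it stood at a smaller log2 fold change of -0.90 (edgeR, adjusted p = 0.0410). Of partners that did not pass, Wbp2 had the most reads over the 6 libraries, though mask had more in the wild type. It had 309 ± 28.4 CPM in the knockdown and 192 ± 25.7 CPM in the wild type (SD, n = 3 each; log2 fold change 0.68, edgeR, adjusted p = 0.0704).

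**Figure D4:**
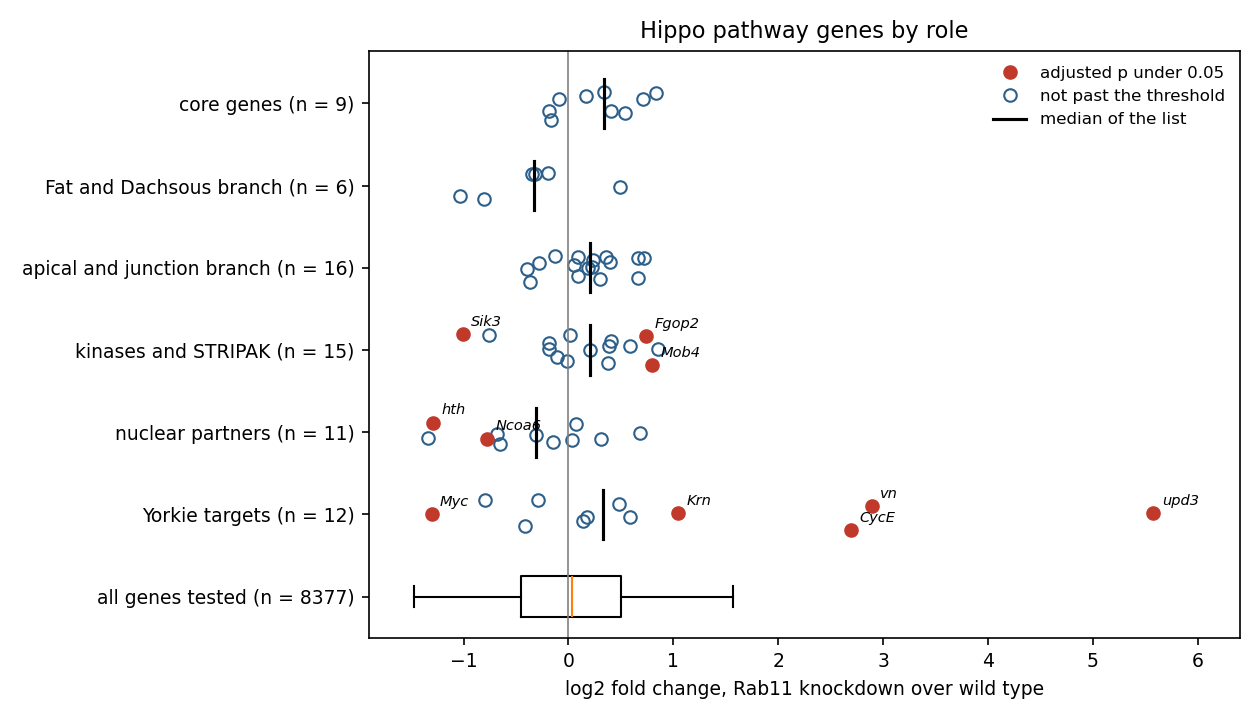
Log2 fold change, knockdown over wild type, of the tested genes of the pathway by role; each circle is a gene, filled where the adjusted p was under 0.05, the black tick is the median of the list, and the box at the bottom shows the median, the quartiles and the 5th and 95th percentiles of all 8377 genes tested. The core genes lie between -0.18 and 0.84 with none filled, and the widest spread is among Yorkie targets, from -1.30 to 5.58.

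Genes that Yorkie is known to drive in some fly tissue, other than the 10, gave calls in both directions. Of 12 tested, 4 rose and 1 fell, with a median of 0.33, beside 758 that rose and 639 that fell of all 8377 genes. DESeq2 passed 5 as higher and 2 as lower, where it passed 21.2% of all genes it adjusted. Among them was upd2, named after its values were seen, which edgeR did not test (DESeq2, adjusted p = 0.00834). It had 22, 4 and 132 reads in the knockdown, against 0, 2 and 5 reads in the wild type. In the main test the S-phase cyclin gene CycE had 5.80, 6.67 and 7.35 CPM in the knockdown, against 1.14, 0.509 and 1.29 CPM in the wild type (log2 fold change 2.69, SE 0.40, edgeR, adjusted p = 0.00616). It and the cytokine gene upd3 (log2 fold change 5.58, edgeR, adjusted p = 0.00181) kept their calls whichever library was left out. The EGF receptor ligand genes vn and Krn rose by 2.89 (edgeR, adjusted p = 0.0187) and 1.04 (edgeR, adjusted p = 0.0482) on the log2 scale. Without single libraries vn kept its call in 3 of 6 fits and Krn in 0.

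The growth regulator Myc, listed as dm in the table, fell to 46.9, 37.1 and 60.7 CPM in the knockdown, against 121, 96.2 and 140 CPM in the wild type (log2 fold change -1.30, SE 0.25, edgeR, adjusted p = 0.0156). Its call was kept in 3 of 6 fits with a library left out, and was lost with library sizes alone (edgeR, adjusted p = 0.204). Diap1, the caspase inhibitor that is a standard Yorkie target, had 247, 281 and 247 CPM in the knockdown, against 179, 229 and 146 CPM in the wild type. Its groups did not overlap, and it did not pass (log2 fold change 0.49, SE 0.24, edgeR, adjusted p = 0.204). Under the block dally, a glypican gene, was added as lower at -0.85 (edgeR, adjusted p = 0.033), so that 4 rose and 2 fell. Of all 8377 genes, 1276 rose and 1175 fell in that fit.

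The count of 5 targets was 2 without knockdown replicate 1 or 2, and 3 without wild-type replicate 1 or 2. Calls over all genes fell in the same fits, from 1397 to 460 and 643, and to 570 and 759.

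Markers of cell types were counted in the same test, beside 758 genes that rose and 639 that fell of all 8377 tested. Of 12 genes of dividing cells all 12 rose, and their summed level was 129 to 144 CPM in the knockdown and 13.8 to 29.0 CPM in the wild type. Of 6 stem cell and enteroblast markers 3 rose, Dl, Sox21a and Sox100B. Sums over the 6 were 158 to 169 CPM in the knockdown and 39.1 to 88.5 CPM in the wild type. The means of Sox21a were 54.3 CPM in the knockdown and 4.79 CPM in the wild type, and those of Sox100B were 47.2 and 10.2 CPM. Groups of esg, klu and E(spl)mbeta-HLH overlapped, and klu stood at a log2 fold change of -0.44. Of 8 enteroendocrine markers 7 rose, with sums of 530 to 717 CPM in the knockdown and 178 to 220 CPM in the wild type. The part of these cells in the levels of the pathway genes was not tested.

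Of 5 enterocyte markers 1 fell, the trypsin gene lambdaTry (log2 fold change -1.76, edgeR, adjusted p = 0.0146). Another, mex1, lay higher in all 3 knockdown libraries, with a log2 fold change of 1.02 (edgeR, adjusted p = 0.0634), and passed with the replicate block (edgeR, adjusted p = 0.0168) and in DESeq2. Named after their values were seen, Myo31DF lay lower without overlap (log2 fold change -0.55, edgeR, adjusted p = 0.229). By the same measure nub lay higher without overlap (log2 fold change 0.39, edgeR, adjusted p = 0.267). Sums over the 5 overlapped, at 4726 to 14004 CPM in the knockdown and 7912 to 21290 CPM in the wild type, and rested mostly on the amylase gene Amy-p, which had 3616 to 13061 CPM in the knockdown and 6612 to 19740 CPM in the wild type. Of 10 visceral muscle markers 1 fell, with sums of 549 to 610 CPM in the knockdown and 551 to 1394 CPM in the wild type, where the highest was replicate 3, the library in which hth was also highest. Sums of fat body markers were 174 to 815 CPM in the knockdown and 5.08 to 238 CPM in the wild type, and those of Malpighian tubule markers were 153 to 258 CPM in the knockdown and 86.7 to 268 CPM in the wild type. Sums of hemocyte, tracheal and neuronal markers were at most 22.9 CPM in any library. None of the markers of fat body, tubule, trachea, neurons or hemocytes passed in edgeR, and 0 had an unadjusted p under 0.05. Under the block the fat body gene apolpp passed as higher (edgeR, adjusted p = 0.0435), and DESeq2 passed 0 of these markers.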

How the data were processed

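The authors deposited raw read counts per gene for 6 libraries. STAR 2.4.2a, HTSeq 0.6.1, DESeq2 and build BDGP5 are named in the submitters' processing notes. How overlapping genes and strand were handled in counting is not given in the sources. The authors also deposited a comparison table with, per the file headers, DESeq2 mean counts and Wald statistics (scores), log2 fold changes, p-values and adjusted p-values.

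Genes were kept by filterByExpr (minimum count 10), which left 8377 of 15391, scaled by TMM and tested, knockdown against wild type, with edgeR 4.0.16 (R 4.3.3; quasi-likelihood, two-sided, group as sole term, Benjamini-Hochberg over all genes, threshold 0.05). SEs and 95% intervals came from the F statistic. Alternatives were other scalings, no filter, DESeq2 1.42.0, a replicate block and left-out libraries.

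No label says that libraries hold separate flies. The p-values thus rest on library-to-library spread, possibly technical. Libraries of a group differed beyond sampling noise (chi-square per gene 67.7 to 376). Deviations of same-numbered libraries from group means correlated at 0.14, 0.21 and 0.71, all above the 0.1 set as the rule for pairing. This pairing is taken from the data and is not clear-cut: 2 of the 3 knockdown libraries correlated better with another number, the first at 0.34 with wild-type replicate 2 and the second at 0.51 with wild-type replicate 1. Calls made under the block, those of hpo and sav included, rest on this pairing.

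Names were matched through current and older symbols, and exonic lengths came from BDGP6, so no coordinates are given. Members, lists and tests were chosen with earlier results of these data known. Text names all members, up to 4 genes past the threshold per list in order of p and the one with most reads that did not pass; others are marked. Sequences are not used here.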

Additional observations from a re-analysis of the deposited data

How the results depend on the processing

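Beside the count of 0 members passing in edgeR (3 at an unadjusted p under 0.05), 1 passed with library sizes alone, with DESeq2 and without both replicate 3 libraries, in each case sav, and 2 with the replicate block. With a single library left out the count was 0 to 1, the 1 being sav without knockdown replicate 3 (adjusted p = 0.0477). Of settings chosen after seeing the data, the block gave 5 with library sizes alone, 2 with RLE size factors and 1 without the replicate 3 libraries. In the same order these fits called 2950 and 2458 of 8377 genes and 1456 of 8250. With the block and library sizes alone, 83.4% of all calls were higher. Library sizes alone moved the median of all genes from 0.04 to 0.47 on the log2 scale, and 82.8% of its calls were higher, against 54.3%. They reversed yki to 0.28, wts to 0.29 and mats to 0.39, and with the block to 0.28, 0.23 and 0.40. With single libraries left out mats ranged from -0.41 to 0.25 and ex from -0.23 to 0.42, reversing mats without knockdown replicate 3 (0.01) and wild-type replicate 2, and ex without knockdown replicate 3. For sav, hpo, kibra, sd and Mer no alternative turned the sign.

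All genes changed numbered 1397, or 2451 with the replicate block, which became 2950 with library sizes alone and 2458 with RLE size factors. Without the block they were 1394 with library sizes alone and 1162 of 13364 with no filter. DESeq2 called 2003 of 9463, and edgeR called 1739 of 8250 without both replicate 3 libraries. With a single library left out, all genes changed numbered 460 to 1138. Pathway regulators changed numbered 5, or 3 with no filter, 9 with DESeq2, 11 with the block, 15 with the block and library sizes alone (all higher), 11 with the block and RLE size factors, and 0 to 5 with single libraries left out. The Yorkie targets changed numbered 5, and 2 to 5 with single libraries left out.

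On TMM scaling the block added hpo and sav among the members, and every gene named in the report as passing the main test passed under it too. The cause of these dependences was not tested. For fj, depth is the limit.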
